A study of Rattus norvegicus with 9 samples.

Results

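The interferon-stimulated genes described here are 9 genes, namely Irf7, Irf9, Stat2, Isg15, Usp18, Rsad2, Mx1, Mx2 and Ifit3, out of 13438 genes that could be named on the array. They were taken by symbol or older symbol through the RefSeq accession of each probe, which gave 11 probes, and they had been chosen because earlier results of these same arrays showed such genes lower after irradiation. All 9 genes and all 11 probes passed the filter on dim probes, which 25369 of 41012 probes and 9604 of the named genes passed. The livers came from male Wistar rats in 3 groups, and RNA of each group was hybridized to 3 Agilent rat arrays in a single colour. The control rats were neither irradiated nor given the drug. The TBI rats received 6.5 Gy of total-body gamma irradiation from a cobalt source at 2 Gy/min, a lethal exposure. The HSC + TBI rats received the same 6.5 Gy after 3 days of Hong Shan Capsule (HSC), a mixture of medicinal herbs given by stomach tube. The dose of HSC was 10 g/kg/day in the text of the series and 30 mg/kg/day in the text of the samples. All livers were taken at 24 h, the age of the rats was not given, and no array of rats given HSC alone was analysed here.

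Type I and type III interferons are secreted proteins that warn cells of viral infection. Their receptors activate Janus kinases, which phosphorylate STAT proteins, and these, STAT2 among them, join IRF9 in a complex that binds the interferon-stimulated response element (ISRE) in the promoters of target genes. The targets include the complex's own subunits, the amplifying factor IRF7, the ubiquitin-like protein ISG15 and many antiviral proteins, so their transcripts are commonly read together as a measure of interferon signalling. In the liver both hepatocytes and the immune cells of the sinusoids respond to interferon.

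The tissue label was checked against 10 hepatocyte markers, among them albumin, transferrin and apolipoprotein A-I. All 10 were above background on every array, and none was called in any comparison. Their summed signal per array was 2078419 to 2137128 in the control group, 2010346 to 2185053 in the TBI group and 2020654 to 2139458 in the HSC + TBI group. Except for Cps1 these signals were very bright, and Tf read 18.16 on all 3 HSC + TBI arrays. Quantile normalization gives all arrays the same set of values, so sums of such bright signals were largely held equal. They do not compare hepatocyte content between the groups. Spots above background made up 57.2% to 59.9% of a control array, 64.1% to 70.1% of a TBI array and 59.3% to 61.0% of an HSC + TBI array. The control group occupied 1 slide and the TBI group another, and a further pair of slides carried the HSC + TBI group, so that slide and group cannot be told apart.

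The promoters are shown first because genes of this kind are known as targets of a common regulator. RefSeq windows of 300 bases (250 before and 50 after the gene's start, assembly GRCr8) were found for 6 of the 9 members. The ISRE core was searched as GAAANNGAAA on both strands, where N is any base. It was in the windows of 3 members, Rsad2, Irf7 and Ifit3, and in all 3 it lay on the strand opposite to the gene. The 250 bases before the start of these genes follow, with the match in capitals.
Rsad2, chr6:48788121-48788370, minus strand: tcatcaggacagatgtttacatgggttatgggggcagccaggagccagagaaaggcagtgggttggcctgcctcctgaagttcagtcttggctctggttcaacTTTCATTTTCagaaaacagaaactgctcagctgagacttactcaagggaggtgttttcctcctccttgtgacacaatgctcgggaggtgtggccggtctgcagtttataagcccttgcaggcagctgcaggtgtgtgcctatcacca
Irf7, chr1:205800024-205800273, minus strand: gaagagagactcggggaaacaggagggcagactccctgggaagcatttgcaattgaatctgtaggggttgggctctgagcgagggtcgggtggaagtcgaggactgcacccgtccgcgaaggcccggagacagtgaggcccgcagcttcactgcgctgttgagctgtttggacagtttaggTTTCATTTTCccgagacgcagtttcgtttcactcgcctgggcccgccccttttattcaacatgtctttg
Ifit3, chr1:241527076-241527325, plus strand: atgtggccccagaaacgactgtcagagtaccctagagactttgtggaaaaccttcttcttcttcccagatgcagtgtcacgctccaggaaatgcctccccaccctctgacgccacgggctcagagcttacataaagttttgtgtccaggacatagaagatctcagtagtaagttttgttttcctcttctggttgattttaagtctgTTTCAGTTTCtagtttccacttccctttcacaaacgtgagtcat
Counted back from the start of the gene, the match spanned bases 147 to 138 in Rsad2, 69 to 60 in Irf7 and 44 to 35 in Ifit3. Rsad2 and Irf7 held the same 10 letters, TTTCATTTTC, and Ifit3 held TTTCAGTTTC. The windows of Mx1, Stat2 and Irf9 held no match, which says only that these letters are not in those windows. Over all 33469 windows of the table, 3.92% held the ISRE core, and over the 8275 windows of genes with a tested probe 3.34% did. The gamma-activated site, searched as TTCNNNGAA, which reads the same on both strands, was in the window of 1 member, Irf9, and in 8.87% of all windows. Isg15, Mx2 and Usp18 were not in the table.

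Values are log2 signals after quantile normalization over the 9 arrays, 1 probe per gene, and a probe was called when the fold change was at least 1.5 and limma's Benjamini-Hochberg adjusted p was under 0.05 over all tested probes. Differences are log2 differences of group means with the standard error (SE) of the fit, and n was 3 arrays per group throughout. The members were selected on their difference from the control rats, so both comparisons with the controls are descriptions without a test.

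Among the transcription factors, Irf7, which amplifies interferon production and response, had signals of 13.29, 15.00 and 14.85 on control 1, 2 and 3. On the TBI arrays it read 12.23, 12.44 and 11.72, and on the HSC + TBI arrays 11.08, 11.30 and 11.91. Every irradiated array lay below every control array, control 1 was the lowest of the controls, and the 2 irradiated groups overlapped. The difference from control was −2.25 (SE 0.45) for TBI and −2.96 (SE 0.45) for HSC + TBI, or 4.77-fold and 7.76-fold lower signal.

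Irf9, the DNA-binding subunit of the STAT complex, had a narrow spread, with 8.74, 9.04 and 8.98 on the control arrays. The TBI arrays gave 8.06, 8.14 and 8.31 and the HSC + TBI arrays 7.84, 7.96 and 8.30. The irradiated arrays were again all below the controls and overlapped each other. Its differences from control, −0.75 (SE 0.15) and −0.88 (SE 0.15), were the least of the members after TBI and, with Stat2, the least after HSC + TBI.

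Stat2, the subunit that carries the transactivation domain of the complex, differed from the other members in the order of its groups. It read 7.94, 8.18 and 8.25 on the control arrays, 7.28, 7.15 and 7.12 on the TBI arrays and 7.64, 7.67 and 7.56 on the HSC + TBI arrays. The 3 groups did not overlap at all, with HSC + TBI lying between TBI and control. The difference from control was −0.94 (SE 0.12) for TBI and −0.50 (SE 0.12), a 1.41-fold lower signal, for HSC + TBI.

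Isg15 encodes a ubiquitin-like protein that is coupled to other proteins and also secreted, and it was among the members with the largest range. Its signals were 14.00, 15.84 and 15.49 on the control arrays, 12.45, 12.05 and 11.62 on the TBI arrays, and 10.72, 11.60 and 11.99 on the HSC + TBI arrays. No irradiated array reached the lowest control, and the 2 irradiated groups overlapped. Isg15 differed from control by −3.07 (SE 0.50) after TBI, an 8.41-fold lower signal, and by −3.67 (SE 0.50) after HSC + TBI, a 12.8-fold lower signal.

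Usp18, the protease that removes ISG15 from its targets and restrains signalling at the interferon receptor, was read by 2 probes. The brighter one gave 10.67, 11.58 and 11.49 on the control arrays, 9.05, 8.89 and 8.55 on the TBI arrays, and 8.01, 8.47 and 9.03 on the HSC + TBI arrays. The irradiated groups overlapped each other and not the controls. The differences were −2.41 (SE 0.31) and −2.75 (SE 0.31), and on the second probe −2.49 and −2.44 (SE 0.33 for each).

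Rsad2 encodes viperin, a radical SAM enzyme that makes a nucleotide analogue which stops viral RNA synthesis, and it had the largest difference of the members in both comparisons under the main normalization, though not with normexp, where Isg15 came first. Its brighter probe gave 10.07, 11.35 and 10.55 on the control arrays, 7.06, 6.82 and 7.01 on the TBI arrays, and 6.10, 6.38 and 7.78 on the HSC + TBI arrays. The TBI arrays were tightly grouped (SD 0.13), HSC + TBI 3 stood above the other two arrays of its group, and none overlapped the controls. The differences were −3.70 (SE 0.45) and −3.90 (SE 0.45). A dimmer Rsad2 probe, at 5.15, 6.06 and 5.36 on the control arrays, was not well above background on any of the 6 irradiated arrays. Taking as a floor for each irradiated array the dimmest probe called above background there (or this probe itself where brighter), it was at least 6.11-fold higher in the control group than in the TBI group and at least 3.73-fold higher than in the HSC + TBI group.

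Mx1 and Mx2 encode dynamin-like GTPases that block virus replication, and because the 2 genes are close relatives their probes may share signal, which was not tested. Mx1 read 6.68, 8.37 and 8.07 on the control arrays, 5.56, 5.39 and 5.57 on the TBI arrays, and 4.53, 4.32 and 5.47 on the HSC + TBI arrays. Its differences were −2.20 (SE 0.44) and −2.93 (SE 0.44). In both genes the irradiated groups overlapped each other and lay below every control. Mx2 gave 9.56, 10.76 and 10.57 on the control arrays, 7.10, 6.82 and 6.48 on the TBI arrays, and 6.12, 6.99 and 7.17 on the HSC + TBI arrays. The Mx2 differences, −3.50 and −3.54 (SE 0.37 for each), corresponded to an 11.3-fold and an 11.6-fold lower signal, and with normexp background correction both were −2.40.

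Ifit3, a tetratricopeptide protein that stabilizes the binding of IFIT1 to foreign RNA, gave 7.43, 8.58 and 8.11 on the control arrays, 5.47, 6.02 and 5.43 on the TBI arrays, and 5.01, 5.23 and 5.29 on the HSC + TBI arrays. On the probe used for each gene, it was besides Stat2 the other member in which the 2 irradiated groups did not overlap. Here HSC + TBI was the lower one. The dimmer Rsad2 probe, not well above background on these arrays, also had HSC + TBI below TBI without overlap. The share of all tested probes without overlap between these groups was not counted, so nothing is read from this. Ifit3 differed from the controls by −2.40 (SE 0.28) after TBI and by −2.86 (SE 0.28) after HSC + TBI.

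**Figure D1:**
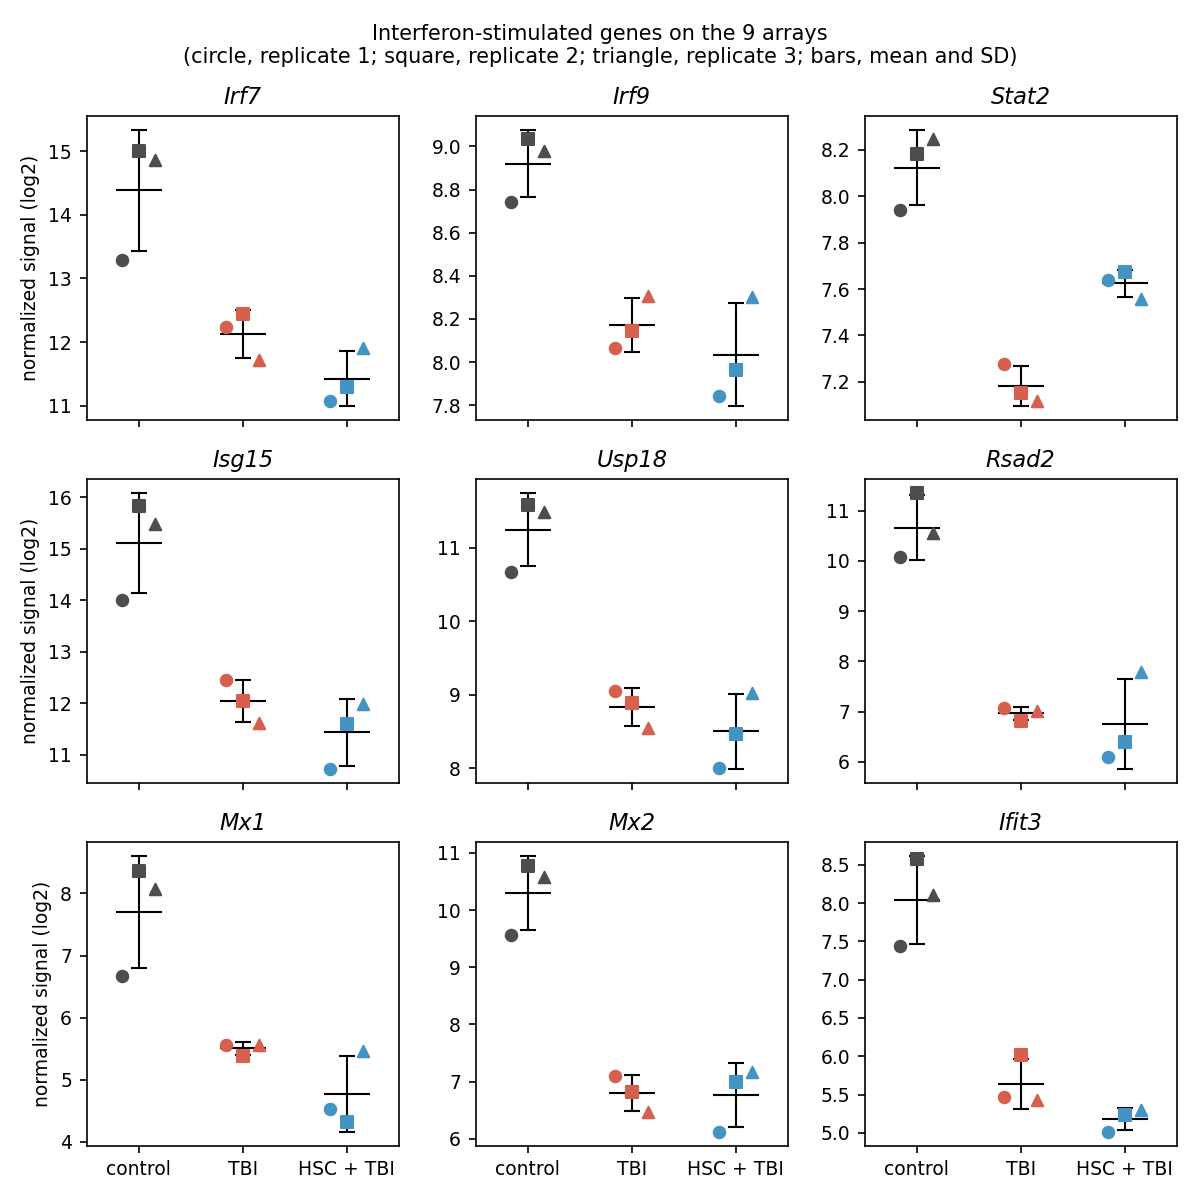
Log2 normalized signal of each member on the 9 arrays, with groups on the x axis, 1 point per array and bars for the group mean and SD (n = 3). In every panel the 6 irradiated arrays lie below the 3 control arrays, control 1 is the lowest control, and in the Stat2 panel HSC + TBI (7.56 to 7.67) lies between the other groups.

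All 9 members were called lower after TBI, where 3.71% of all tested probes were called lower and 3.54% higher. After HSC + TBI 8 of 9 were called lower, Stat2 being the one that was not, against 2.05% of all tested probes lower and 1.19% higher. In both comparisons 9 of 9 members had every irradiated array under every control array, which held for 15.6% of the tested probes after TBI and 13.7% after HSC + TBI. The median difference of the members was −2.40 after TBI and −2.93 after HSC + TBI, and that of all tested probes −0.01 and 0.05. Nothing is read from these counts, since the same differences chose the members and both comparisons share the control arrays. The TBI count fell to 6 without control 2 or without control 3, and the HSC + TBI count to 5 without control 3 or without HSC + TBI 1. Calls over all tested probes fell in these fits too. They went from 1839 to 1139 and 888 after TBI, and from 820 to 330 and 317 after HSC + TBI. With normexp background correction, which compresses dim probes, the differences after TBI and HSC + TBI were −1.04 and −1.16 for Mx1, −1.29 and −1.46 for Ifit3, −2.40 in both for Mx2, and −2.72 and −2.79 for Rsad2. Stat2 (−0.45) and Irf9 (−0.50) were then not called after TBI. Isg15, at −3.04 and −3.59, then had the largest difference of the members in both comparisons, in place of Rsad2.

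The members varied together within groups as well as between them. Control 1 had the lowest signal of the 3 controls in 9 of 9 members, where it was the lowest control for 30.4% of the tested probes. Its mean over the 9 members was 9.82, compared with 10.97 on control 2 and 10.71 on control 3. The TBI arrays gave means of 8.25, 8.19 and 7.98, and the HSC + TBI arrays 7.45, 7.77 and 8.28, with HSC + TBI 3 the highest of its group in 8 of 9 members and HSC + TBI 1 the lowest in 7. After the group means were subtracted, Pearson's r between members over the 9 arrays ranged from 0.03 to 0.99 with a median of 0.74 over 36 pairs, and from 0.50 upward over the 28 pairs without Stat2. These r values are descriptions over arrays that share the normalization. In the same control array some other lists were low too. Control 1 was the lowest control for 39 of 42 other interferon-induced genes, 10 of 10 Kupffer cell and macrophage markers, 5 of 5 natural killer cell markers and 8 of 9 T cell markers. It was the lowest for 2 of 3 B cell markers, 3 of 5 sinusoidal endothelial cell markers and 6 of 10 hepatocyte markers. For the 3 neutrophil markers it was the lowest in 0, and control 2 was the lowest in 3.

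HSC + TBI against TBI was not itself used to choose the members. It shares its arrays with the comparisons that did, so its tests are not independent of that choice. None of the 9 members was called, where 0.564% of all tested probes were called lower and 0.233% higher. On the brightest tested probe of each gene, limma's unadjusted p was under 0.05 for 1 member, Stat2. The same held for 4124 of all 25369 tested probes. Stat2 was higher in HSC + TBI by 0.44 (95% interval 0.17 to 0.71, unadjusted p = 0.00518, Benjamini-Hochberg adjusted p = 0.134 by limma). All 3 HSC + TBI arrays were above all 3 TBI arrays for this gene, and the share of all tested probes so separated was not counted. The Stat2 difference stayed between 0.41 and 0.49 when any single array was left out. With normexp it was 0.20.

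On the probe used for each gene, the other 8 members had lower means in HSC + TBI than in TBI, with adjusted p from 0.456 to 0.971 by limma. For Irf7 the difference was −0.70 (95% interval −1.72 to 0.31), for Mx1 −0.73 (−1.74 to 0.27) and for Isg15 −0.60 (−1.74 to 0.53). These intervals are wide enough to hold both no change and a more than 2-fold lower signal. The difference of Ifit3 was −0.46 (−1.10 to 0.18) although its arrays did not overlap. Usp18 differed by −0.33 (−1.05 to 0.38) on its brighter probe and by 0.06 (−0.69 to 0.81) on the other. The difference was −0.21 (−1.23 to 0.82) for Rsad2 on its brighter probe and −0.04 (−0.88 to 0.81) for Mx2. On the dimmer Rsad2 probe it was −0.88 (−1.52 to −0.25, unadjusted p = 0.0118 and adjusted p = 0.18 by limma). That probe was not well above background on any irradiated array. Irf9 had the narrowest interval among these 8, −0.49 to 0.21 around −0.14, which leaves out a fold change of 1.5 either way. A difference that misses the threshold does not show that the groups were alike. Without HSC + TBI 1 the difference of the brighter Rsad2 probe turned to 0.12, and that of Mx2 to 0.28.

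**Figure D2:**
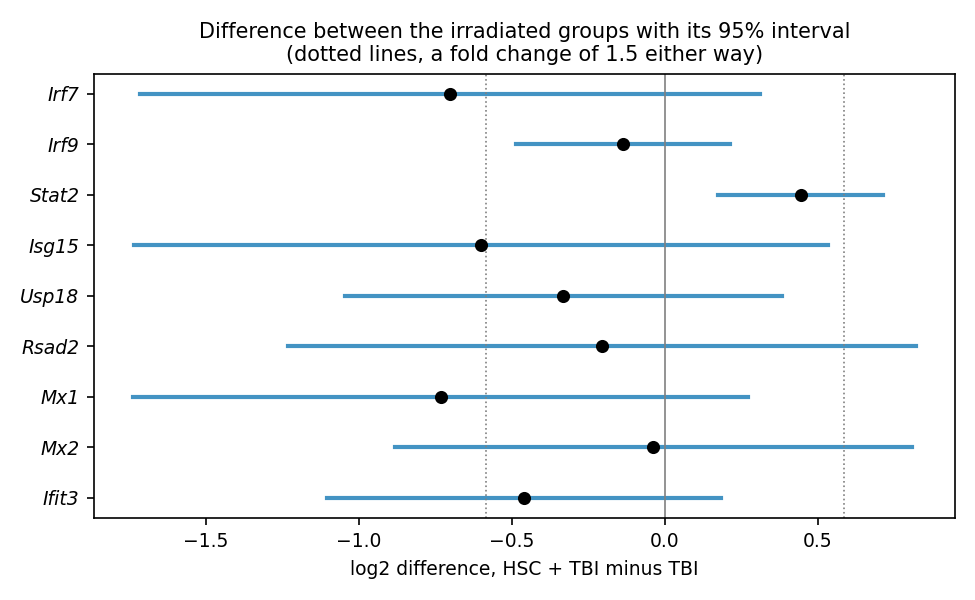
Log2 difference HSC + TBI minus TBI on the x axis for each member (points), with its 95% interval from the fit of all 9 arrays (lines, n = 3 per group). The interval of Stat2, 0.17 to 0.71, lies above 0, and those of the other 8 members include 0.

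Genes of the same pathway outside the members were taken from lists of 114 genes in 4 roles, of which 72 were on the array under a RefSeq name and 64 passed the filter. The ligands were at the floor. Ifna4, Ifna5, Ifnb1, Ifng and Ifnk had probes, none passed the filter, Ifng and Ifnk were not well above background on any array, and Ifna4, Ifna5 and Ifnb1 each passed on 1 array, in the TBI group. The dimmest probe above background read 2.51 to 3.13 on the TBI arrays, 3.68 to 3.97 on the controls and 3.56 to 3.66 on HSC + TBI. Ifna4 (3.40) and Ifnb1 (3.15), both on TBI 3, were below that floor on every array of the other groups. Ifna5 (6.08 on TBI 2) was above it. The array therefore gives a bound and no comparison for the interferons themselves.

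For the receptors and signal transducers, 12 of which were tested, the median difference was −0.11 after TBI and −0.27 after HSC + TBI. Of the 12, 1 was called lower in each of these comparisons, beside 3.71% and 2.05% of all tested probes. Lower means were found for 7 and 10 of them. Irf1, a factor that responds chiefly to interferon gamma, had differences of −0.38 and −0.81 and was not called. Receptor chains and a kinase had differences of −0.17 and −0.22 for Ifnar1 (−0.50 and −0.38 on its second probe), −0.09 and −0.29 for Ifngr2, and 0.00 and 0.05 for Jak1. The kinase Jak2 (0.06 and −0.76) and Irf5 (0.12 and −1.14) were further from 0 after HSC + TBI. None of these was called.

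Of 10 tested nucleic acid sensors and adaptors, 2 were called lower after TBI and 1 after HSC + TBI. Of all tested probes 3.71% and 2.05% were called lower. The called genes were the RNA helicases Dhx58 (−0.76 and −0.95, called in both) and Ifih1 (−0.71, and −0.79 not called). A second, dimmer Dhx58 probe differed by −0.46 and −0.94 and was called in neither comparison. The adaptor Mavs, which passes on the signal of Ifih1, differed by 0.02 and −0.15, and the kinase Tbk1 by −0.11 and −0.03, neither called. The list's medians were 0.02 and −0.14.

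The other interferon-induced effectors carried most of the calls. Of 42 tested, 19 were called lower after TBI and 24 after HSC + TBI, none was called higher, and their medians were −0.81 and −1.22. Of all tested probes 3.71% and 2.05% were called lower. The lists were drawn up with earlier results of these data known. The largest were Oasl (−2.80 and −3.55), Oas1i (−2.62 and −2.65) and Oas1a (−2.12 and −2.32), relatives of the oligoadenylate synthetases that sense double-stranded RNA and whose probes may share signal, and Cmpk2 (−2.26 and −3.02), the nucleotide kinase encoded beside Rsad2. Rtp4 (−1.89 and −2.19) and Oasl2 (−1.87 and −2.92) completed the 6 largest after TBI. Gbp2, a guanylate-binding GTPase, was among the 6 largest after HSC + TBI at −2.25 and was not called after TBI at −0.53. Its arrays read 11.31, 12.40 and 11.99 in the controls, 10.40, 11.54 and 12.17 after TBI and 9.15, 9.82 and 10.00 after HSC + TBI. TBI thus overlapped the controls for this gene and HSC + TBI did not, while the difference between the irradiated groups, −1.72, was not called (adjusted p = 0.134 by limma).

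Over the 64 tested genes outside the members, 22 were called lower after TBI and 26 after HSC + TBI, 20 of them in both. Of all tested probes 3.71% and 2.05% were called lower. A second Mov10 probe, at 0.00 and 0.14, was called in neither, unlike the probe used for that gene. Pnpt1 and Ifih1 were the 2 called after TBI and not after HSC + TBI, Pnpt1 being named after its values were seen. In HSC + TBI against TBI none of the 64 was called in either direction, and the smallest adjusted p by limma was 0.083, for Irf5. By limma 16 of the 64 had an unadjusted p under 0.05, as had 4124 of all 25369 tested probes. Of the 64 genes 55 had a lower mean in HSC + TBI than in TBI, with a median of −0.31, where 41.3% of all tested probes were lower and their median was 0.06. The counts depended on single arrays. For TBI against control, leaving out control 2 gave 9 calls and leaving out control 3 gave 7. Over all tested probes the calls went from 1839 to 1139 and 888. For the pathway genes, omitting TBI 1 gave 12, TBI 2 gave 11, and TBI 3, HSC + TBI 1 or HSC + TBI 3 gave 14. All tested probes gave 1808, 1242, 2392, 1496 and 1586 calls in that order. After HSC + TBI the pathway count was 12 without control 2 or HSC + TBI 2, 9 without control 3 or HSC + TBI 1, and 16 without HSC + TBI 3. The calls over all tested probes went from 820 to between 317 and 483 in these fits. Between the irradiated groups 8 of the 64 were called, all lower in HSC + TBI, without TBI 1. That omission raised the calls over all tested probes from 202 to 948.

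**Figure D3:**
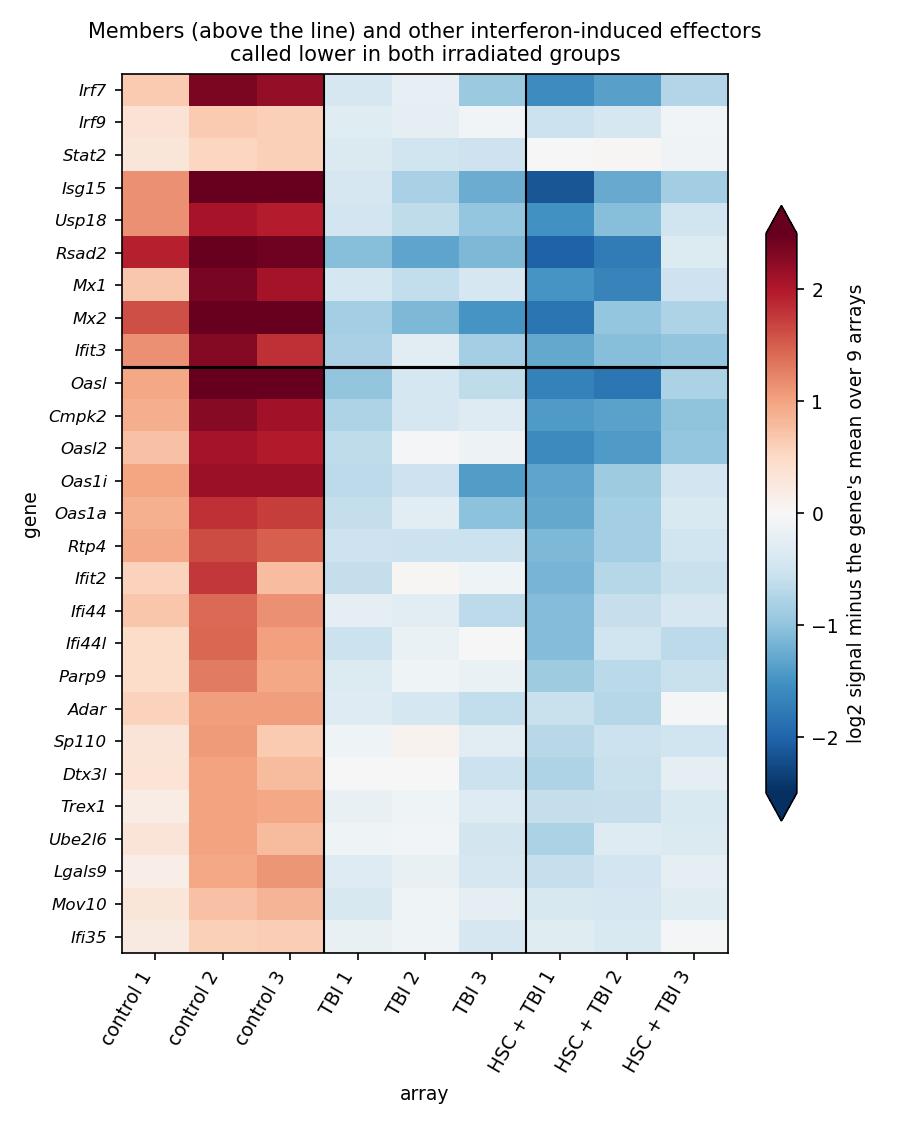
Log2 signal minus the gene's own mean over 9 arrays (colour) for the 9 members and the 18 other interferon-induced effectors called lower in both comparisons with control, with arrays on the x axis. Control 2 and control 3 are the darkest red columns, control 1 is paler, and the 6 irradiated arrays are blue or near white.

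Promoter windows were found for 60 of the 72 pathway genes on the array, 61 windows in all, and 27 of the 61 (44.26%) held the ISRE core. Among the genes called in a comparison with control, 12 of 22 with a window held it, among them Oas1a, Oas1i, Oasl2 and Gbp2. Among those tested and not called, 11 of 31 held it, for example Bst2, Ifitm3 and Gbp5. The letters were thus in the windows of genes whose transcripts changed and of genes whose change did not pass the test. The share over all windows of the table was that given above, 3.92%.

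Likeness to the members was measured as Pearson's r over the 9 arrays with the mean of the members' values, each centred on its own mean, over 9589 other named genes. The 10 highest were Rtp4 (0.997), Oas1a (0.992), Ifi44 (0.991), Pttg1 (0.988), Dlgap5 (0.987), Oas1i (0.987), Hmgb2 (0.987), Plk1 (0.987), Kif22 (0.986) and Phf11b (0.984). This order rests largely on the difference between control and irradiated arrays, which chose the members. After the group means were subtracted from every gene, the 10 highest were Gsto2 (0.984), Rtp4 (0.979), Tigd3 (0.978), Dhx58 (0.974), Rgs11 (0.962), Ganc (0.961), Or7a36 (0.957), Mk1 (0.944), Gab1 (0.943) and Slc44a4 (0.941). Rtp4 appeared in both orders. Before that subtraction r was −0.43 for Tigd3, −0.10 for Or7a36, 0.18 for Gsto2 and 0.26 for Rgs11, and 0.71 to 0.997 for the rest. Tigd3 (2.63 and 3.14) and Or7a36 (2.42 and 2.25) had control and HSC + TBI means under the dimmest probe above background there. How high r would run by chance over 9589 genes was not tested. The r values are a description over arrays that share the normalization, and no p is given.

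Markers of the blood and immune cells in the liver differed between the same arrays. In whole tissue, fewer cells of a type and less RNA per cell cannot be told apart. Of all tested probes 3.71% were called lower after TBI and 2.05% after HSC + TBI. Between the irradiated groups 0.564% were called lower and 0.233% higher. Of 9 tested T cell markers, 3 were called lower after TBI (Cd3g, Cd2 and Lat) and 3 after HSC + TBI (Cd3g, Zap70 and Lat), while Cd3e, Cd5 and Cd247 were not well above background on any array. Lower means than in the controls were found for 6 of the 9 after TBI and 8 after HSC + TBI. Cd8b (0.78), Cd4 (0.71) and Lck (0.55) were higher after TBI, and Lck (0.41) also after HSC + TBI, none called. The summed signal of the 12 T cell markers was 833 to 1209.7 per array in the control group, 549 to 791 in the TBI group and 455 to 555 in the HSC + TBI group. Between the irradiated groups 1 T cell marker was called in each direction, Cd2 higher and Cd8b lower in HSC + TBI. Of 3 tested B cell markers 1, Cd79b, was called lower in both comparisons with control. Cd22 was higher after TBI (0.55) and slightly lower after HSC + TBI (−0.14), not called in either. The sum over 6 B cell markers was 249.9 to 271, 197 to 325 and 159 to 182. Of 5 tested natural killer cell markers none was called after TBI and Klrk1 was called lower after HSC + TBI, with sums over 7 markers of 1814.0 to 4083, 1124 to 3401 and 672 to 1215.

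None of the 10 Kupffer cell and macrophage markers, among them Clec4f, Marco and Cd68, was called in any comparison. Their summed signal was 91159 to 142521 in the control group, 95709.5 to 178683 in the TBI group and 66998 to 72484 in the HSC + TBI group, and 10 of 10 had lower means in HSC + TBI than in TBI, with a median of −0.96. Plasmacytoid dendritic cells, the main blood source of interferon alpha, were represented by 3 genes on the array. Ccr9 was not well above background on any array, Klk1 passed on 0 control, 3 TBI and 1 HSC + TBI arrays, and Tcf4, which other cells express too, was not called. The floor was lower on the TBI arrays, as given above, so the Klk1 counts do not compare the groups. The sums, 624 to 832, 600.2 to 725 and 547.5 to 601, are nearly all signal of Tcf4 (mean log2 9.42, 9.33 and 9.11) and do not measure these cells. None of the neutrophil markers (3 tested, sums over 8 genes of 283.5 to 842, 414 to 1514 and 314.5 to 468.5) and none of the 5 sinusoidal endothelial cell markers (16075 to 20419, 23052 to 26140.2 and 20801 to 22717) was called. The summed signal of the 9 members was 30889.6 to 100383, 7658 to 11706 and 4728 to 9393 in the same order. The part of these cells in the values of the members was not tested.

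**Figure D4:**
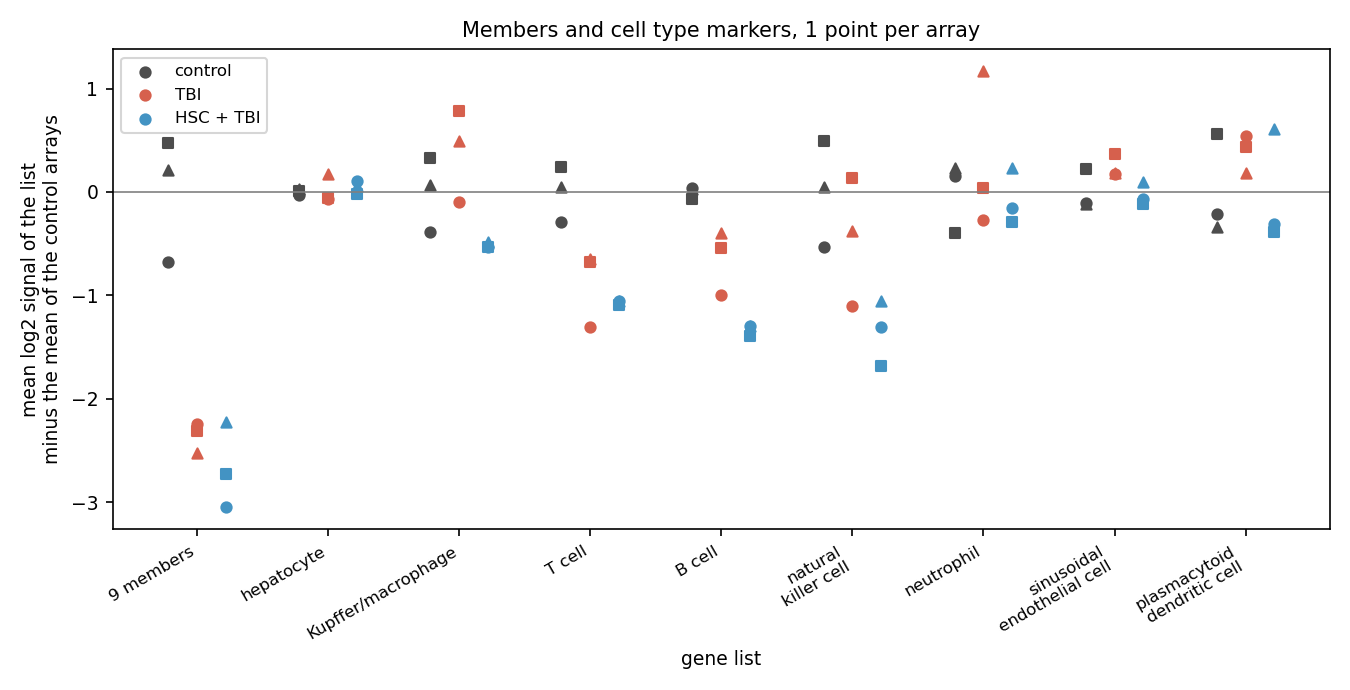
Mean log2 signal of the 9 members and of each marker list, minus the mean of the 3 control arrays, with 1 point per array (circle, square and triangle for replicates 1, 2 and 3) and the lists on the x axis. The members lie more than 2 log2 units below 0 on all irradiated arrays. The hepatocyte markers stay near 0, where quantile normalization largely holds such bright signals. The T, B and natural killer cell markers lie lower on the HSC + TBI arrays than on the control arrays.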

How the data were processed

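Liver RNA of 9 rats in 3 groups was measured on one-colour Agilent arrays (design on rn4). The authors read spot intensity with Agilent Feature Extraction 10.7 (10.7.3.1 per the file headers) and deposited quantile-normalized log2 values from GeneSpring, which served as an alternative. Here control spots and outlier spots were left out (84 to 115 of 43379 spots per array, none saturated), and processed intensities were floored at 1, put on the log2 scale, quantile-normalized and averaged per probe. They differed from the authors' values by a median of 0.03. A probe was tested when more than 0.5 of its spots were above background on all 3 arrays of a group. RefSeq accessions gave 16968 probes a name.

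Groups were compared by limma 3.58.1 (R 4.3.3) in 1 fit of 3 groups. The probe of a gene was the brightest tested one. The members and gene lists were chosen with earlier results of these data known. Named outside the members were the called genes of each list, at most 6 per list and comparison, the interferons, Irf1, examples that were not called (chosen after their values were seen), and the 10 genes most like the members. Results of some single genes of these lists are not reported here. The fit was tested on simulated data. With 3 arrays per group precision is limited, and p-values measure the spread between these arrays. Alternatives were a 75th percentile shift, normexp with an offset of 50, the authors' values, other filters and probe rules, only the compared groups, the methods' t-test, a replicate block, slide as a random block, and each array left out.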

Additional observations from a re-analysis of the deposited data

How the results depend on the processing

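Over the 9 fits that each left out an array, the count of members called ranged from 6 to 9 for TBI against control, from 5 to 9 for HSC + TBI against control and stayed at 0 for HSC + TBI against TBI. For the other pathway genes it ranged from 7 to 26, from 9 to 33 and from 0 to 8. For all tested probes it ranged from 888 to 2392, from 317 to 1028 and from 28 to 948. Calls that were lost were those of Mx1 after TBI (without control 2, control 3 or TBI 2) and after HSC + TBI (without control 3 or HSC + TBI 1), of Irf7 after TBI (without control 2 or 3) and after HSC + TBI (without control 3, HSC + TBI 1 or HSC + TBI 2), and of Irf9 after TBI (without control 2, control 3, TBI 1 or TBI 2) and after HSC + TBI (without control 2, control 3, HSC + TBI 1 or HSC + TBI 2). Stat2 after HSC + TBI became called without control 1. By the methods' t-test with adjusted p, 0 members and 0 other pathway genes were called in both comparisons with control, where that test called 7 and 2 of all tested probes. With unadjusted p it called 8 members in each of them, and 5 other pathway genes in HSC + TBI against TBI. Of all tested probes it then called 2121, 1687 and 930 in the order above. For TBI against control the other pathway genes called numbered 12 with no filter on dim probes, 11 with only the compared groups in the fit, and 34 (31 lower, 3 higher) with slide as a random block. Over all probes in the fit these settings called 1790, 1174 and 4528, and the main fit 1839. The slide block, whose estimated correlation was −0.33, gave 14, all lower, for HSC + TBI against TBI. It called 2256 of all tested probes there, where the main fit called 202. With normexp, 7 members were called after TBI and 8 after HSC + TBI. The remaining settings kept each count within 1.5 times. Of the members' log2 differences, 14 moved by more than 1 SD of the arrays, 526 by less, and none of the called ones changed sign. The SD was the largest of the gene's 3 group SDs. Several settings, such as the t-test and the replicate and slide blocks, left the group means and so the differences unchanged. The count of 526 therefore does not measure how firm the differences are. The cause of the changes between settings was not tested. Deviations from the group means had r of 0.10 to 0.19 between same-numbered control and TBI arrays. Between differently numbered control and TBI arrays r was −0.12 to 0.02. Same-numbered pairs with an HSC + TBI array gave −0.14 to 0.015. Whether the replicate numbers pair the arrays was not tested. With the replicate block 9, 8 and 0 members and 18, 29 and 0 other pathway genes were called in the order above. Signal over background limited the interferons and the dim Rsad2 probe.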
